A study of Homo sapiens with 6 samples.

Results

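The genes described here encode the proteasome and the proteins that regulate or assemble it. They were every protein-coding gene of the expression table whose symbol starts with PSMA to PSMG followed by a digit, without PSMB8 and PSMB9, which gave 47 of 58735 genes, or 47 of 19951 protein-coding genes. The rule uses symbols and no expression value, although the group of genes was proposed with earlier results of these data known. The expression came from HEY cells, a human ovarian cancer line. One group, Vector, carried the empty plasmid and the other, oeCSGALNACT2, carried a plasmid for overexpression of CSGALNACT2, an enzyme of the Golgi that transfers N-acetylgalactosamine during chondroitin sulfate synthesis. Each group had 3 libraries of mRNA, and both groups were the same line, with the plasmid as the stated difference. A figure legend of the study describes the overexpression as stable. If the groups were derived separately, effects of the plasmid and of that derivation cannot be told apart. The study asked what the transcriptome does when CSGALNACT2 is raised. The sources used do not state that the libraries were separate cultures, so a p-value below speaks only to a spread between libraries, which can be technical. Where replicate number is left out of the fit, that spread is how far libraries of 1 group differed. Where replicate number is in the fit, it is how far the group difference varied between same-numbered pairs.

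The proteasome degrades proteins that carry ubiquitin chains. Its core particle (20S) is a barrel of alpha rings, which gate the entrance, around beta rings, which hold the proteolytic sites. The regulatory particle (19S) caps the barrel: its ATPases unfold the substrate and thread it into the core, and its other subunits bind ubiquitin, remove it or hold the cap together. Activators and an inhibitor can bind the core in place of the cap, and dedicated chaperones build the rings. In human cells, the transcription factor NFE2L1 raises transcription of most subunit genes together when proteasome capacity falls short, through antioxidant response elements in their promoters.

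Promoter sequences are shown for 5 members: the 3 with the largest positive differences among those that held an antioxidant response element, and the 2 that were lower once replicate number was taken into account. They are RefSeq promoters of GRCh38.p14, 300 bases around the gene start, most of them upstream, written 5′ to 3′ on the gene's strand. Capitals mark the element, searched as TGACNNNGC on both strands. PSMD3 lies at chr17:39980557-39980856, PSMD1 at chr2:231056617-231056916, PSMC4 at chr19:39970915-39971214, PSME1 at chr14:24135944-24136243 and PSMG2 at chr18:12658488-12658787, all on the plus strand.
PSMD3: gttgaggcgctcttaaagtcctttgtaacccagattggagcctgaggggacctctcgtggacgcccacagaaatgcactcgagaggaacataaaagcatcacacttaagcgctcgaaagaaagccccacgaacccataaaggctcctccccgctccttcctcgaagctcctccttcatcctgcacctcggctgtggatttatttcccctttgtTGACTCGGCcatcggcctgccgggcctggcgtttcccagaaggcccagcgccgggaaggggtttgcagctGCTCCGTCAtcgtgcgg
PSMD1: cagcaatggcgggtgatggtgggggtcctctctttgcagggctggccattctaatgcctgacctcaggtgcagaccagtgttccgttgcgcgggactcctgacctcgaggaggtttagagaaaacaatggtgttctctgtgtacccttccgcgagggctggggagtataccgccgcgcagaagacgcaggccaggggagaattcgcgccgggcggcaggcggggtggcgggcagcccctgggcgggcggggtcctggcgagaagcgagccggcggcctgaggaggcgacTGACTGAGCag
PSMC4: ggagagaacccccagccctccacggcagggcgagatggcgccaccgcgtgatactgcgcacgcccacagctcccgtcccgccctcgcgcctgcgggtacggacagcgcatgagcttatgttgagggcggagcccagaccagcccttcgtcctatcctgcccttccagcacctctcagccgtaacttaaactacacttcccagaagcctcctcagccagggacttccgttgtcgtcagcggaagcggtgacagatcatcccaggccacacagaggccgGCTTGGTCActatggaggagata
PSME1: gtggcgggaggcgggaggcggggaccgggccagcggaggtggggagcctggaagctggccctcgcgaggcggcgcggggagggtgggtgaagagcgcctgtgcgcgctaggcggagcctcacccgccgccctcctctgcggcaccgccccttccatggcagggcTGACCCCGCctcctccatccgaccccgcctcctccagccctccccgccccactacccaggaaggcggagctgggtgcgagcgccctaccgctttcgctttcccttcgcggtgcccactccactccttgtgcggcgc
PSMG2: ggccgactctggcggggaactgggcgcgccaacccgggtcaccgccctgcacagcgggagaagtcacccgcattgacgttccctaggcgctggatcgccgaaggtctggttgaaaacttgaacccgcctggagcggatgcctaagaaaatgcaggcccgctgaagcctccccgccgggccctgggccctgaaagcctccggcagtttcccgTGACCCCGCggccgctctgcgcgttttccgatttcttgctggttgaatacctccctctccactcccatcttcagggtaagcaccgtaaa
PSMD3 held 2 matches, 1 on each strand, and each of the other 4 held 1. RefSeq promoters were matched by symbol for 41 of the 47 members, and PSMA7, PSMB1, PSMB6, PSMB7, PSMD4 and PSMG3 were the members without one. The element was found in 12 of the 41 (29.27%) and in 13.56% of all 27305 promoters of the same length. The CCAAT box, searched as CCAAT on both strands, was found in 19 of the 41 (46.34%) and in 35.7% of all promoters. A match describes letters in the window and not a binding site.

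CSGALNACT2 itself was measured at 15.3, 8.18 and 8.12 FPKM (fragments per kilobase of gene, scaled to the mapped total of the library) in Vector and at 535, 453 and 409 FPKM in oeCSGALNACT2. The groups were 10.5 ± 4.13 and 466 ± 63.6 FPKM (SD, n = 3 each), a log2 fold change of 5.39 (SE 0.27, limma adjusted p = 0.00302), in the direction of the labels. The libraries held 15628834 to 18186682 reads, as recovered from the FPKM steps. Mitochondrially encoded genes took 2.77% to 3.61% of reads in Vector and 4.60% to 4.82% in oeCSGALNACT2. In both groups, replicate 1 lay away from the other libraries. Of markers of an epithelial ovarian line, PAX8, KRT7, KRT8 and KRT18 were present, whereas KRT19 and EPCAM were at or under 1.23 FPKM and MUC16 was near 0. WT1 was at 1.02 to 2.11 FPKM. Of the leukocyte markers, CD3E was at 0 and PTPRC and CD14 were at or under 0.501 FPKM. The endothelial markers PECAM1 and VWF were at or under 0.318 FPKM, whereas the cadherin CDH5 was at 19.5 to 30.5 FPKM in Vector and 6.19 to 10.2 FPKM in oeCSGALNACT2. Of the fibroblast markers, COL1A2 and DCN were near 0, LUM was at or under 1.21 FPKM and COL1A1 at 1.68 to 4.97 FPKM.

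The members were a highly expressed set. Over all 6 libraries, the tested members had a median level of 26.0 FPKM, against 6.50 FPKM over all 11479 genes tested. A gene was tested where its mean was at least 1 FPKM, which 41 of the 47 members met. PSMD2, a scaffold of the regulatory particle, had the highest mean at 293 FPKM. PSMB7, which carries the trypsin-like site, followed at 135 FPKM. PSMB3, PSMA7 and PSMB4, all of the core, came next at 94.6, 89.1 and 81.8 FPKM. The order among the last of these was within their spread: in Vector, PSMB4 was 81.6 ± 18.3 FPKM and PSMA7 was 77.2 ± 17.2 FPKM (SD, n = 3).

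Summed over the 47 members, the level was 1420, 1476 and 1550 FPKM in Vector and 1680, 1662 and 1796 FPKM in oeCSGALNACT2. Every oeCSGALNACT2 library was above every Vector library. As a share of reads, the members took 0.521% to 0.543% in Vector and 0.606% to 0.642% in oeCSGALNACT2. In such bulk RNA, a change in the number of cells expressing a gene and a change in RNA per cell cannot be told apart. The share is relative to each library's own total, which held more mitochondrial reads in oeCSGALNACT2. With mitochondrially encoded genes taken out of the total, the median log2 fold change over the tested members was 0.21, and with them it was 0.18.

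Taken gene by gene, 34 of the 41 tested members had a log2 fold change above 0, where 49.2% of all tested genes did. Fold changes here are oeCSGALNACT2 against Vector on the log2(FPKM + 1) scale, which understates low genes. Over all tested genes the median was -0.01, and the members ranged from -0.53 to 0.71. Pairing libraries by replicate number, 27 of 41 (65.9%) were higher in oeCSGALNACT2 in all 3 pairs, where 33.4% of all tested genes were. Members lower in all 3 pairs were PSME1, PSMG2 and PSMA5, where 35.6% of all tested genes were lower. The groups did not overlap, with all oeCSGALNACT2 libraries above, in 11 of 41 members (26.8%), where 11.2% of tested genes were so placed. No tested member had all oeCSGALNACT2 libraries below, where 12.8% of tested genes did.

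No single member passed the test that compares the 2 groups with no account of replicate number. In limma over all 11479 genes, 155 (1.35%) had an adjusted p under 0.05, of which 58 (0.505%) were higher and 97 (0.845%) lower, and 0 of the 41 members were among them. Of the members, 6 (14.6%) were higher at an unadjusted p under 0.05, where 7.8% of all tested genes were, and 0 were lower, where 9.26% were. On the recovered reads, edgeR called 0 of 45 members at an adjusted p under 0.05, where it called 0.971% of all genes, and DESeq2 called 0 of 46, where it called 2.6%. At an unadjusted p under 0.05, edgeR had 7 members higher, where 8.85% of all genes were, and 0 lower, where 8.35% were. DESeq2 had 2 members higher, where 4.68% of all genes were, and 0 lower, where 5.02% were. The smallest adjusted p of a member in limma was 0.125, for PSME3. With 3 libraries against 3, an exact two-sided permutation test of 1 gene cannot go below 0.1.

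The libraries carried a pattern shared between groups that bears on this. In 21 of the tested members (51.2%, against 41.3% of all tested genes) replicate 1 was above replicates 2 and 3 in both groups, and in 14 (34.1%, against 39.9%) it was below them in both. PSMA1, of the alpha ring, was at 15.1, 6.03 and 5.75 FPKM in Vector and at 19.3, 5.25 and 5.28 FPKM in oeCSGALNACT2, so replicate 1 was far above the other libraries in both groups. PSMD3 showed the opposite order, with replicate 1 lowest in each group. A fit with the replicate number as a block compares the groups within each number. The labels do not give this pairing. The data set replicate 1 of both groups apart, but they do not settle how replicates 2 and 3 pair. Deviations from the group means correlated at 0.631 and 0.686 for replicates 2 and 3 of the same number, and at 0.682 and 0.590 across numbers. Calls with the block and counts over pairs rest on the pairing by number. With the replicate number as a block in limma, 18 of the 41 members (43.9%) rose and 2 (4.88%) fell. Over all tested genes the block called 43.7%, with 21.2% that rose and 22.5% that fell. The 18 were PSMA3, PSMA4, PSMA7, PSMB1, PSMB2, PSMB3, PSMB10, PSMC1 to PSMC5, PSMD1, PSMD3, PSMD11, PSME3, PSMF1 and PSMC3IP, and the 2 were PSME1 and PSMG2. In edgeR with the same block, 21 of 45 members rose and 2 fell, where 22.2% and 20.1% of all genes did and 42.3% were called in all. It shared 17 of the 18 and both of the 2, and it added PSMB5, PSMD5, PSMD9 and PSMD13. With replicates 2 and 3 only, limma called 41.8% of all genes, and of the 41 members 9 rose, where 20.7% of all genes did, and 4 fell, where 21.1% did.

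**Figure D1:**
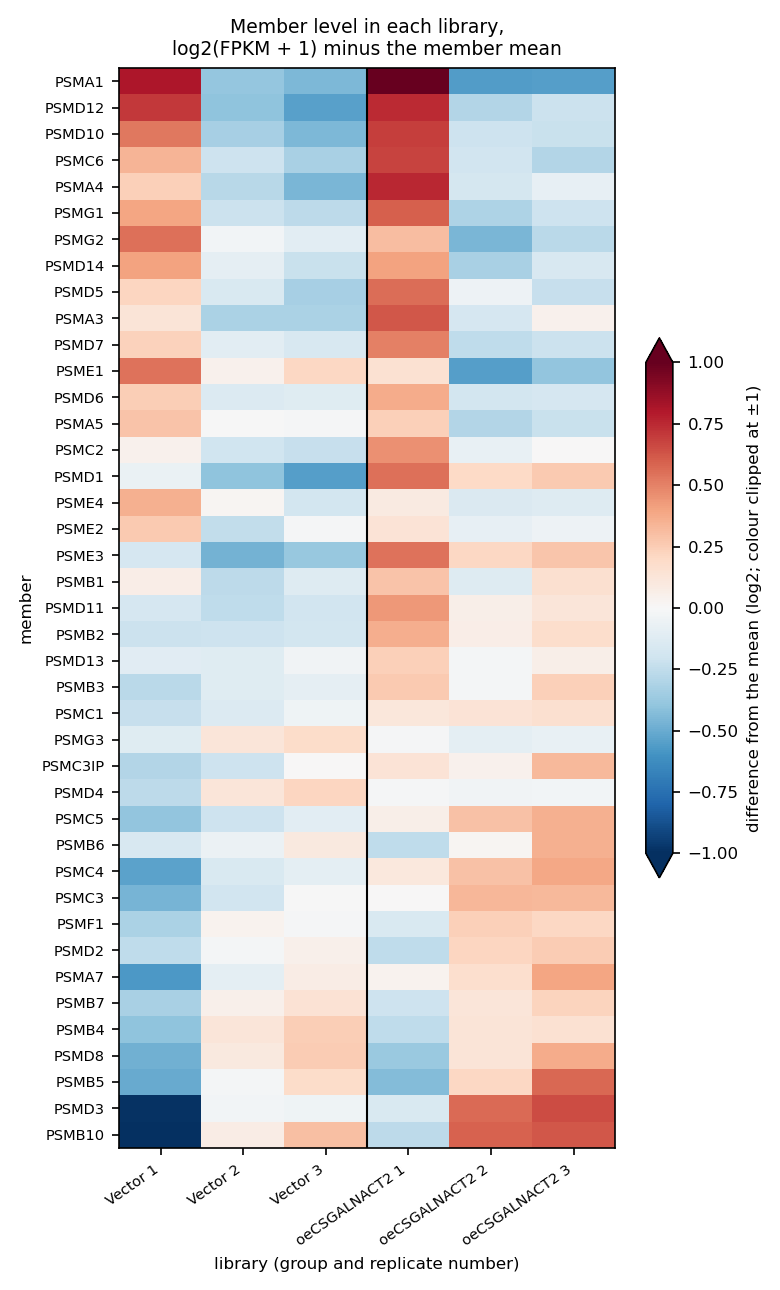
Each row is a tested member and each column a library, and colour is the member's log2(FPKM + 1) in that library minus its mean over the 6 libraries, clipped at 1 in either direction. Rows are ordered by how far replicate 1 lay above the other replicates; the upper rows, with PSMA1 first, are red in replicate 1 of both groups and the lower rows, ending with PSMD3 and PSMB10, are blue.

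Among the ATPases of the regulatory particle, all 6 had a positive log2 fold change, with a median of 0.36 and a range of 0.13 to 0.52, and all 6 were higher in oeCSGALNACT2 in all 3 pairs. Over all tested genes, 49.2% were positive, 33.4% were higher in all 3 pairs and 21.2% rose with the block. Their summed level was 133, 145 and 155 FPKM in Vector and 186, 195 and 199 FPKM in oeCSGALNACT2. The 2 groups did not overlap in that sum, nor in PSMC1, PSMC3, PSMC4 and PSMC5. Of all tested genes, 11.2% had all oeCSGALNACT2 libraries above. PSMC4 was at 22.8, 29.9 and 31.0 FPKM in Vector and at 36.0, 41.1 and 43.8 FPKM in oeCSGALNACT2. These values of PSMC4 did not overlap between groups. The log2 fold change of PSMC4 was 0.52 (SE 0.19, limma adjusted p = 0.231, and 0.00336 with the block). PSMC5 was 21.6 ± 2.30 and 30.4 ± 3.30 FPKM, and PSMC3 was 55.6 ± 8.98 and 75.8 ± 9.50 FPKM (SD, n = 3). These 2 rose with the block (limma adjusted p = 0.00295 and 0.00485), as did PSMC1 and PSMC2 by smaller amounts, 0.27 and 0.26 on the log2 scale. PSMC6 was the exception, at 0.13 with an adjusted p of 0.271 in limma with the block. On the opposite strand, exons of another gene covered 47.7% of the coding bases of PSMC1 (NRDE2) and 10.0% of those of PSMC5 (FTSJ3). NRDE2 had a mean of 1.01 FPKM. FTSJ3 was at 6.17, 9.82 and 10.4 FPKM in Vector and at 13.2, 17.0 and 16.2 FPKM in oeCSGALNACT2, the same direction as PSMC5. The strand rule of the counting was not given in the sources used here, so reads of such neighbours cannot be told apart from those of PSMC1 and PSMC5. The part of FTSJ3 in the PSMC5 values was not tested.

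The other subunits of the regulatory particle were more mixed. Of 11 tested, 9 had a positive log2 fold change, with a median of 0.15, and 3 rose with the block. Over all tested genes, 49.2% were positive and 21.2% rose with the block. PSMD3, which helps hold the lid of the cap together, was at 14.1, 28.4 and 27.98 FPKM in Vector and at 25.9, 43.2 and 45.9 FPKM in oeCSGALNACT2. Replicate 1 of oeCSGALNACT2 lay below replicates 2 and 3 of Vector, so the groups overlapped, although each pair was higher. Its log2 fold change in limma over all 6 libraries was 0.71, the largest there of all members (SE 0.35, 95% interval -0.14 to 1.55, adjusted p = 0.375). That rank depends on the setting: without Vector replicate 1 PSMD3 was at 0.39, PSMD1 at 0.81 and PSME3 at 0.77. That setting keeps replicate 1 of oeCSGALNACT2, which was low for PSMD3. With replicates 2 and 3 only, PSMD3 was at 0.64, PSMD1 at 0.71 and PSME3 at 0.67. In edgeR PSMB10 was at 0.77 and PSMD3 at 0.74. With the block in limma the SE of PSMD3 was 0.07 and the adjusted p 0.00197. PSMD1, a scaffold of the base of the cap, was at 30.9, 24.2 and 21.8 FPKM in Vector and at 47.8, 37.3 and 39.0 FPKM in oeCSGALNACT2. All oeCSGALNACT2 libraries of PSMD1 were above all Vector libraries. For PSMD1 the log2 fold change was 0.68 (SE 0.20, limma adjusted p = 0.161, and 0.00211 with the block). PSMD11, another lid subunit, had 12.9 ± 0.435 and 17.5 ± 2.66 FPKM (SD, n = 3) without overlap, and it also rose with the block by 0.41 on the log2 scale.

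Among the subunits that handle ubiquitin, PSMD4, a ubiquitin receptor, was 40.6 ± 6.98 FPKM in Vector and 38.7 ± 0.367 FPKM in oeCSGALNACT2, and PSMD14, the deubiquitinase of the lid, was 16.5 ± 4.19 and 15.9 ± 4.68 FPKM (SD, n = 3 each). Neither passed the test in limma, with or without the block, and the 95% interval of the log2 fold change without it was -0.49 to 0.39 for PSMD4 and -0.70 to 0.59 for PSMD14. PSMD2, the most abundant member, was at 243, 287 and 301 FPKM in Vector and at 244, 338 and 347 FPKM in oeCSGALNACT2. Its replicate 1 libraries were nearly level, and its log2 fold change of 0.15 did not pass with the block (limma adjusted p = 0.146).

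**Figure D2:**
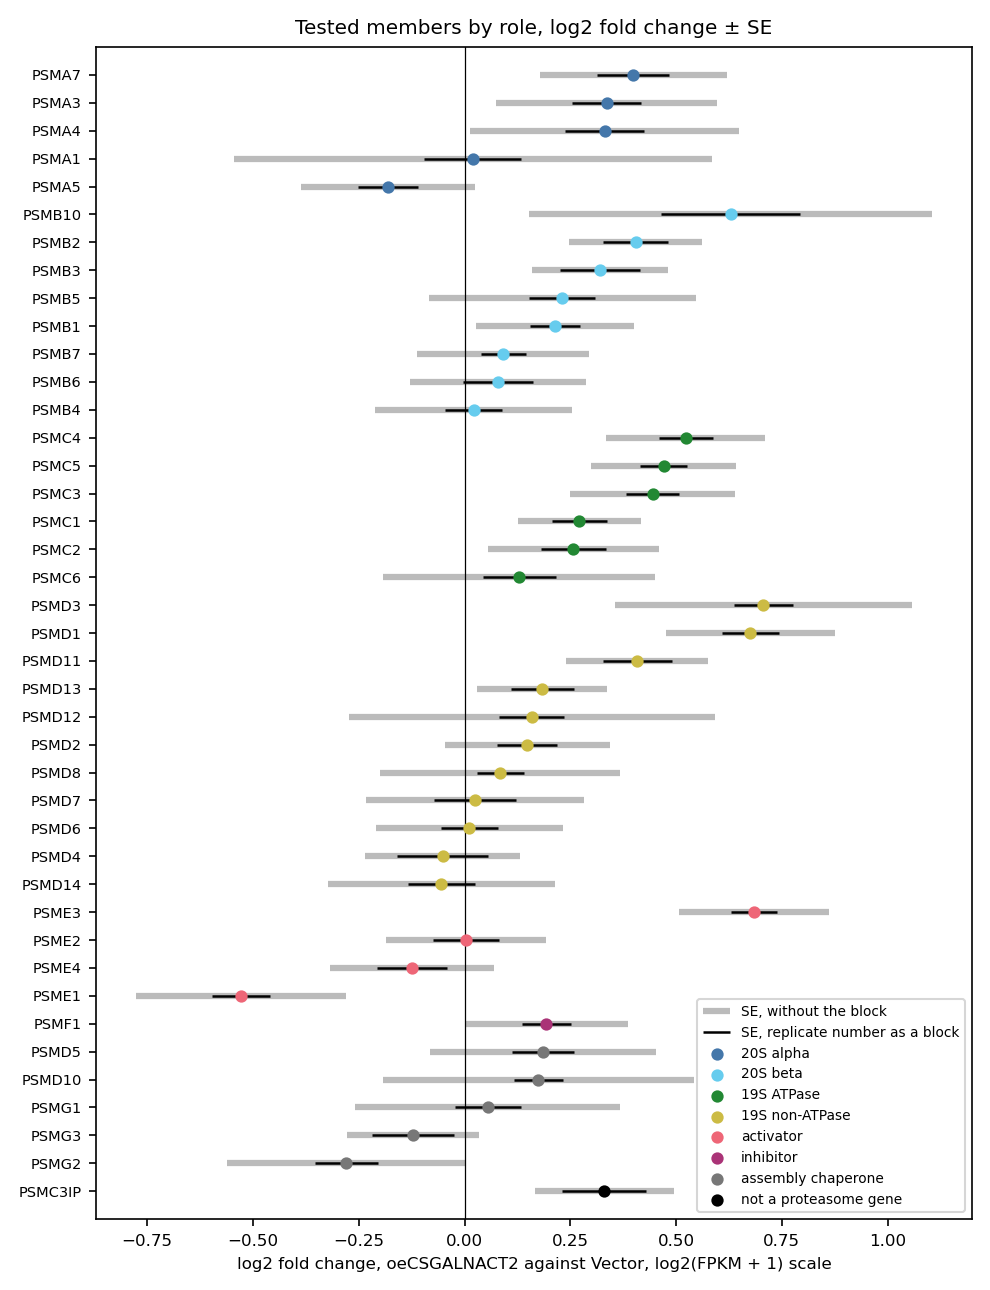
Points give the log2 fold change of each tested member, oeCSGALNACT2 against Vector on the log2(FPKM + 1) scale, grouped and coloured by role; thick grey bars are its SE without the block and thin black bars its SE with replicate number as a block. The ATPases all lie right of 0, between 0.13 and 0.52, and PSME3 at 0.68 and PSME1 at -0.53 lie at opposite ends of the activators.

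In the core particle, PSMB5, PSMB6 and PSMB7, catalytic subunits of the beta ring, did not pass in limma with or without the block. Without the block no member passed. PSMB5, with the chymotrypsin-like site, was at 37.6, 52.9 and 61.0 FPKM in Vector and at 39.4, 62.2 and 80.4 FPKM in oeCSGALNACT2. PSMB6, with the caspase-like site, was at 45.8, 49.0 and 54.9 FPKM in Vector and at 42.6, 51.8 and 65.8 FPKM in oeCSGALNACT2. PSMB7 was at 106, 138 and 147 FPKM in Vector and at 115, 146 and 156 FPKM in oeCSGALNACT2. In all 3 genes the groups overlapped, and replicate 1 was the lowest library of each group. Their log2 fold changes were 0.23, 0.08 and 0.09, and limma with the block gave adjusted p-values of 0.0614, 0.469 and 0.219. PSMB5 rose in edgeR with the block, so its call depends on the tool.

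PSMB10 encodes the catalytic subunit that takes the place of PSMB7 in the immunoproteasome. It was at 0.328, 2.48 and 3.06 FPKM in Vector and at 1.76, 3.96 and 4.07 FPKM in oeCSGALNACT2. Its replicate 1 was low in both groups, and the groups overlapped. The log2 fold change, 0.63, had an SE of 0.48 (limma adjusted p = 0.571, and 0.0299 with the block). It was 0.13 without Vector replicate 1, where PSMB10 had 10 reads, a setting that keeps the low replicate 1 of oeCSGALNACT2. With replicates 2 and 3 only it was 0.42, and with a pseudocount of 0.1 it was 1.06. Its size thus depends on the libraries kept and on the pseudocount. On the same strand, exons of another annotated gene covered 60.0% of its coding bases. The non-catalytic PSMB2 and PSMB3 did not overlap between groups: PSMB2 was 21.5 ± 0.257 and 28.9 ± 3.17 FPKM, and PSMB3 was 83.9 ± 5.68 and 105 ± 11.2 FPKM (SD, n = 3 each). Both rose with the block, as did PSMB1, while PSMB4 stood at 0.02 on the log2 scale. In all, the 8 tested beta subunits had positive log2 fold changes with a median of 0.22, and 4 rose with the block. Of all tested genes, 49.2% were positive and 21.2% rose with the block.

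Among the alpha ring genes, 4 of 5 tested had a positive log2 fold change, with a median of 0.33, where 49.2% of all tested genes were positive. PSMA3, PSMA4 and PSMA7 rose with the block by 0.34, 0.33 and 0.40 on the log2 scale, where 21.2% of all tested genes rose. PSMA5 was at 23.4, 19.02 and 18.9 FPKM in Vector and at 22.6, 15.4 and 16.2 FPKM in oeCSGALNACT2, lower in each pair. The groups overlapped, and its log2 fold change of -0.18 did not pass (limma adjusted p = 0.726, and 0.0930 with the block). PSMA1 was at 0.02 on the log2 scale with a 95% interval of -1.34 to 1.38, the widest of the ring. Exons of another gene on the same strand covered 91.0% of its coding bases.

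The activators went in different directions. PSME3 forms the nuclear activator ring that promotes degradation without ubiquitin. It was at 35.1, 28.2 and 30.2 FPKM in Vector and at 58.1, 45.9 and 48.2 FPKM in oeCSGALNACT2. All oeCSGALNACT2 libraries were above all Vector libraries, and the fold was 1.63 on the mean FPKM. PSME3 had a log2 fold change of 0.68 (SE 0.18, 95% interval 0.26 to 1.11, limma adjusted p = 0.125, and 0.00113 with the block). PSME1, a subunit of the interferon-inducible activator used in antigen processing, was at 50.4, 35.4 and 39.6 FPKM in Vector and at 38.2, 23.02 and 25.9 FPKM in oeCSGALNACT2. Each pair was lower, but replicate 1 of oeCSGALNACT2 lay above replicate 2 of Vector. Its log2 fold change was -0.53 (SE 0.25, 95% interval -1.13 to 0.07, limma adjusted p = 0.350, and 0.00372 with the block).

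PSME2 encodes the partner of PSME1 in the same ring. It was at 18.8, 12.9 and 15.4 FPKM in Vector and at 17.2, 14.7 and 14.98 FPKM in oeCSGALNACT2. The groups overlapped, and its log2 fold change was 0.00 (0.00387, SE 0.19), far from passing. The difference between PSME1 and PSME2 was not itself tested. PSME4, a large single-chain activator, was at 13.8, 10.7 and 9.19 FPKM in Vector and at 11.3, 9.48 and 9.59 FPKM in oeCSGALNACT2, which overlapped. Its log2 fold change of -0.12 did not pass in limma (adjusted p = 0.811, and 0.276 with the block). PSMF1, an inhibitor of the isolated core, was at 13.8, 17.8 and 17.3 FPKM in Vector and at 15.5, 20.6 and 20.2 FPKM in oeCSGALNACT2. The groups overlapped, each pair was higher, and its log2 fold change was 0.19 (limma adjusted p = 0.678, and 0.0428 with the block).

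**Figure D3:**
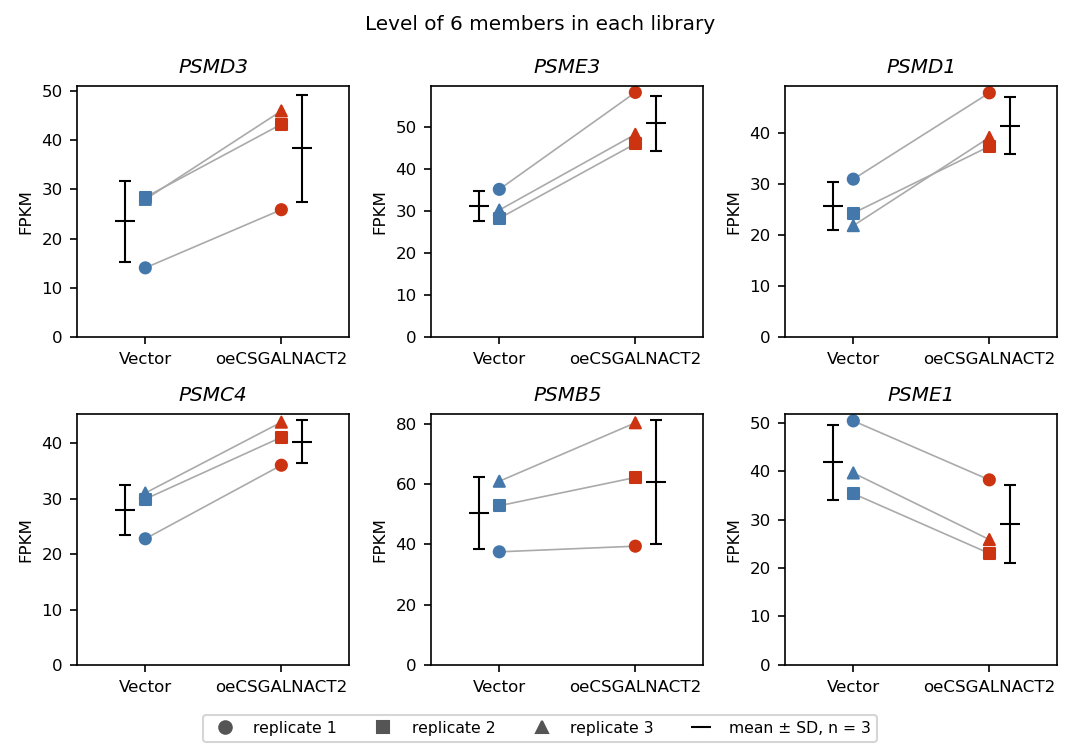
Points are the FPKM of 6 members in each library, with Vector in blue and oeCSGALNACT2 in red, marker shape giving the replicate number and grey lines joining libraries of the same number; black bars are mean ± SD (n = 3). PSME3, PSMD1 and PSMC4 do not overlap between groups, PSMD3 and PSMB5 do although each line rises, and each line of PSME1 falls.

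Among the 5 tested assembly chaperones, none rose with the block in limma, where 21.2% of all tested genes did. So few genes cannot set the chaperones apart from that share. PSMG2, which pairs with PSMG1 to build the alpha ring, was at 28.95, 19.1 and 17.96 FPKM in Vector and at 24.3, 13.9 and 15.9 FPKM in oeCSGALNACT2. The groups overlapped, and each pair was lower. Its log2 fold change was -0.28 (SE 0.28, limma adjusted p = 0.685, and 0.0306 with the block), and it was -0.0732 without Vector replicate 1. PSMG1 was at 16.3, 10.3 and 9.96 FPKM in Vector and at 18.9, 9.65 and 10.4 FPKM in oeCSGALNACT2, with overlap. PSMG3, whose product pairs with that of PSMG4, was at 7.14, 8.65 and 9.04 FPKM in Vector and at 7.80, 7.28 and 7.39 FPKM in oeCSGALNACT2, also with overlap. The log2 fold changes of PSMG1 and PSMG3 were 0.06 and -0.12 and passed in neither limma fit. PSMD5 and PSMD10, which assist assembly of the ATPase ring, stood at 0.19 and 0.17 on the log2 scale and did not pass in limma either (adjusted p = 0.0941 and 0.0581 with the block). PSMD5 rose in edgeR with the block (adjusted p = 0.0314), so its call depends on the tool.

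PSMC3IP was taken in by its symbol, but it encodes a factor of meiotic recombination and is no proteasome gene. It was at 1.75, 1.92 and 2.39 FPKM in Vector and at 2.70, 2.47 and 3.21 FPKM in oeCSGALNACT2. The groups did not overlap, and it rose with the block by 0.33 on the log2 scale (limma adjusted p = 0.0443, and 0.376 without it). In edgeR with the same block it did not pass (adjusted p = 0.0760). On the opposite strand, exons of MLX, at a mean of 10.1 FPKM, covered 17.5% of the coding bases of PSMC3IP. As the strand rule of the counting was not given, reads of MLX cannot be told apart from those of PSMC3IP there. Without PSMC3IP, 40 members were tested, their median was 0.18 and 17 rose with the block.

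The 6 members below 1 FPKM were PSMA2, PSMA6, PSMA8, PSMB11, PSMD9 and PSMG4. PSMA8 and PSMB11, the subunits of testis and thymus proteasomes, had 0 reads in all libraries and 1 read in 1 library. PSMA2 and PSMA6, in contrast, encode obligatory parts of the alpha ring, and they were at means of 0.794 and 0.397 FPKM, where tested alpha genes were at 9.45 to 89.1 FPKM. PSMA2 had 47 to 120 reads per library and PSMA6 had 27 to 62. PSMD9, a chaperone of ATPase assembly, was at 0.492, 0.871 and 0.801 FPKM in Vector and at 0.924, 1.17 and 1.25 FPKM in oeCSGALNACT2, without overlap, and it rose with the block in edgeR (adjusted p = 0.0136). PSMG4 was at 0.391, 0.766 and 0.862 FPKM in Vector and at 0.407, 0.806 and 0.856 FPKM in oeCSGALNACT2, nearly level in each pair.

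Annotation was set beside these levels. Exons of another annotated gene on the same strand covered 100% of the coding bases of PSMA2 (AC010132.3), 89.7% of those of PSMA6 (AL121594.1) and 68.3% of those of PSMD9 (AC069503.2). The other members with such cover above 1% were PSMA1 (AC018523.2) and PSMB10 (AC040162.1). PSMG4 had no cover of this kind. The overlapping genes named here had means at or under 0.0661 FPKM. WDR66, also on the same strand, covered 4.97% of the exon bases of PSMD9, outside its coding bases, and had a mean of 2.92 FPKM. Of 31 pseudogenes named after members, 21 were listed at 0 in all libraries, and 1, PSMC1P1, had a mean of at least 1 FPKM, at 2.61 FPKM. How reads shared by 2 genes were counted was not given in the sources used here, and the part of the overlap in the low levels was not tested.

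**Figure D4:**
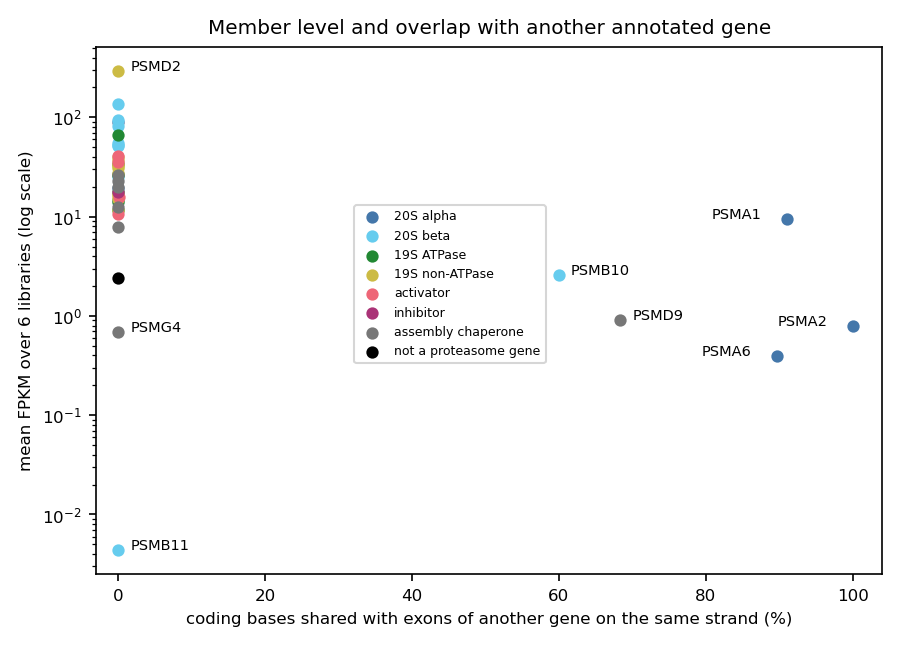
Each point is a member, placed by the share of its coding bases that exons of another gene on the same strand cover (x axis, percent) and by its mean FPKM over 6 libraries (y axis, log scale), coloured by role; PSMA8, at 0 reads, cannot be drawn. The 5 members with high cover, PSMA2, PSMA1, PSMA6, PSMD9 and PSMB10, lie at or under 9.45 FPKM. PSMG4, PSMB11, PSMC3IP (2.40 FPKM) and PSMG3 (7.88 FPKM) also lie under that level, without cover.

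Genes around the proteasome were described from lists of 8 regulators of its transcription, 8 further subunits and associated factors, ubiquitin shuttle factors, 6 ubiquitin genes and ubiquitin-activating enzymes, and 9 subunits of the related COP9 signalosome. All of these genes passed the filter, and BACH1 alone passed limma without the block. BACH1, a repressor that binds antioxidant response elements, was at 56.9, 40.7 and 35.7 FPKM in Vector and at 18.4, 14.6 and 13.1 FPKM in oeCSGALNACT2. The groups did not overlap, and BACH1 fell by 1.46 on the log2 scale (SE 0.23, limma adjusted p = 0.0487, 0.0488 in edgeR and 6.25e-05 in DESeq2). VCP, the ATPase that extracts ubiquitylated proteins from membranes and complexes, was at 38.2, 45.5 and 46.7 FPKM in Vector and at 76.5, 92.6 and 93.1 FPKM in oeCSGALNACT2. Its libraries were well apart, and its log2 fold change was 0.99 (SE 0.17, limma adjusted p = 0.0544, 0.0531 in edgeR, 0.00414 in DESeq2 and 0.000525 in limma with the block). UFD1, a cofactor of VCP, was 2.75 ± 0.139 and 5.02 ± 0.351 FPKM (SD, n = 3 each), also without overlap, at a log2 fold change of 0.68 (adjusted p = 0.0745 in limma, 0.0244 in DESeq2).

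NFE2L1 and NFE2L2, which were picked out after their values were seen and which bind antioxidant response elements, had log2 fold changes of -0.43 and -0.49. The groups overlapped in both genes, and neither passed limma without the block (adjusted p = 0.643 and 0.549). Both fell with the block (limma adjusted p = 0.00743 and 0.00305). Over all tested genes 21.2% rose and 22.5% fell with the block, and the calls in these short lists are to be read against those shares. Of the 8 regulators, VCP and UFD1 rose and 4, with NGLY1 and BACH1, fell with the block. Of the further subunits and associated factors, 3 rose and 1 fell with it: POMP, the chaperone of core assembly, rose by 0.47 on the log2 scale (limma adjusted p = 0.00640), together with UBE3C and ADRM1, and UCHL5 fell. Of the shuttle factors, which carry ubiquitylated proteins to the cap, UBQLN2 and UBQLN4 rose with the block, at log2 fold changes of 0.29 and 0.37, and RAD23B and UBQLN1 fell, at -0.32 and -0.43. The activating enzyme UBA1 rose and the ubiquitin gene RPS27A fell, and of the COP9 signalosome GPS1 and COPS7B rose and COPS2 fell. The medians were -0.26 over the regulators, 0.02 over the further subunits and associated factors, 0.01 over the ubiquitin genes and activating enzymes and 0.07 over the COP9 signalosome, against 0.18 over the members.

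Members with and without the promoter element were set side by side. Of the 35 tested members with a promoter, the 11 with an antioxidant response element had a median log2 fold change of 0.16, with 4 higher and 2 lower with the block. The 24 without had a median of 0.21, with 12 higher and 0 lower. The 17 with a CCAAT box had a median of 0.26, with 9 higher and 0 lower, and the 18 without it had a median of 0.17, with 7 higher and 2 lower. With the block, 21.2% of all tested genes rose and 22.5% fell. PSME3 and PSMB10, with larger log2 fold changes than PSMC4, held no match to the antioxidant response element and so were not among the promoters shown. Whether either motif bears on the differences was not tested.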

How the data were processed

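RNA of HEY cells was sequenced by the authors from 3 Vector and 3 oeCSGALNACT2 libraries, grouped by the sample descriptions (the titles of the overexpression samples name CSGALNACT1). The deposited table holds FPKM values per gene, made by the authors, with an aligner and a counter that no source used here names. The processing notes of the submitters name mm10, but start and end of all 58735 genes were those of human GENCODE 29. The deposited count table, of which the copy used holds 1310 genes, 9 of them members, served as a check: counts recovered from FPKM equalled it in 1309 of 1309 complete rows, and 100% of values were whole within 0.01. The FPKM table of group means was not used.

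Genes with a mean of at least 1 FPKM were tested by limma 3.58.1 (R 4.3.3) on log2(FPKM + 1) with a trend, with Benjamini-Hochberg adjustment over all 11479 and a threshold of 0.05. Alternatives were a pseudocount of 0.1, other filters and scalings, edgeR 4.0.16 and DESeq2 1.42.0 on recovered reads, the replicate number as a block, and left-out libraries. Deviations of same-numbered libraries from their group means correlated at 0.810, 0.631 and 0.686 over tested genes, so the numbers were taken as pairs from the data, although the labels do not say so. Replicates 2 and 3 also correlated across numbers, at 0.682 and 0.590, so the data do not settle how these 2 pair.

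Members, roles and lists were chosen with earlier results of these data known. Values in every library were given for catalytic subunits, activators, the inhibitor, the PSMG chaperones, PSMC3IP and the 5 members with the largest and the 5 with the most negative log2 fold changes, and for others where a result turned on them. The plan was to name up to 3 genes with the smallest p per related list. The genes named were instead ones called in limma with the block. Some genes of the marker and related lists are not reported here. Simulated data were used to test limma with and without the block, and edgeR and DESeq2 without it. The simulated libraries shared no replicate effect, so they do not check the block under the pattern of these data. The other settings were not simulated.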

Additional observations from a re-analysis of the deposited data

How the results depend on the processing

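Fewer or more calls followed from the setting. Over all genes, 155 calls became 31 with no filter on low values, 731 in DESeq2, 5017 with the replicate block in limma, 6058 with it in edgeR and 4800 with replicates 2 and 3 only. Leaving out 1 library gave 5 to 159 calls: 82 without Vector replicate 1, 7 and 8 without Vector replicates 2 and 3, and 5 without oeCSGALNACT2 replicate 2 or replicate 3. Members called higher went from 0 to 18 with the replicate block in limma, 21 with it in edgeR and 9 with replicates 2 and 3 only (PSMB2, PSMB10, PSMC3, PSMC4, PSMC5, PSMD1, PSMD3, PSMD11 and PSME3, all 9 among the 18). Members called lower went from 0 to 2, 2 and 4 (PSMA5, PSME1, PSMG2 and PSMG3). Centring each library on its median together with the block, chosen after seeing the data, gave 5042 genes, 18 members higher and 2 lower. The cause was not tested. No member was called when any 1 library was left out, and the member median stayed above 0 in every setting, from 0.12 to 0.26.

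With replicates 2 and 3 only, log2 fold changes turned to -0.0184 for PSMG1, -0.10 for PSMD7, -0.0410 for PSMB4, -0.14 for PSMA1 and -0.0435 for PSMD6, and in DESeq2 PSME2 was at -0.00834. None of these was called in any setting. With 1 library left out in turn, the log2 fold change ranged from -0.54 to 0.43 for PSMA1, -0.17 to 0.15 for PSMB4, -0.0800 to 0.23 for PSMB6, -0.0496 to 0.22 for PSMB7, -0.18 to 0.33 for PSMC6, -0.13 to 0.48 for PSMD10, -0.17 to 0.55 for PSMD12, -0.27 to 0.13 for PSMD14, -0.20 to 0.0430 for PSMD4, -0.0477 to 0.35 for PSMD5, -0.17 to 0.14 for PSMD6, -0.22 to 0.16 for PSMD7, -0.13 to 0.29 for PSMD8, -0.12 to 0.13 for PSME2, -0.25 to 0.0232 for PSME4 and -0.23 to 0.27 for PSMG1. The other 25 tested members kept their direction in every setting. Of the members called with the block in limma, those whose value without the block moved by over 1.5 times when 1 library was left out ranged from 0.11 to 0.50 (PSMA3), 0.0369 to 0.54 (PSMA4), 0.21 to 0.53 (PSMA7), 0.12 to 0.33 (PSMB1), 0.13 to 0.93 (PSMB10), 0.0937 to 0.36 (PSMC2), 0.39 to 0.96 (PSMD3), 0.0850 to 0.32 (PSMF1) and -0.50 to -0.0732 (PSMG2). The lowest values were without oeCSGALNACT2 replicate 1 for PSMA3, PSMA4, PSMB1 and PSMC2, and those nearest 0 were without Vector replicate 1 for PSMA7, PSMB10, PSMD3, PSMF1 and PSMG2. Such a setting keeps replicate 1 of the other group. With replicates 2 and 3 only, the values in that order were 0.26, 0.24, 0.21, 0.18, 0.29, 0.42, 0.64, 0.21 and -0.30. PSMB5 and PSMD13, called with the block in edgeR but not in limma, ranged from 0.00211 to 0.51 and from 0.11 to 0.24. Depth was not varied.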
